A study of Homo sapiens with 12 samples.

Results

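Keratins are the intermediate filament proteins of epithelial cells, and 10 of their genes (KRT4, KRT7, KRT8, KRT13, KRT15, KRT17, KRT18, KRT19, KRT80 and KRT81) were followed here across 4 groups of ARPE-19 cells. The 10 are those of 40591 named lines of the deposited count table whose gene symbol is on that list, and the list was selected on values measured in these libraries. Of the 10, 6 passed the filter on low counts (KRT7, KRT8, KRT13, KRT18, KRT80 and KRT81), while KRT4, KRT15, KRT17 and KRT19 did not. The table holds 55 keratin genes in all, 29 of type I and 26 of type II. The members held from 87.0% of all keratin reads in OSK replicate 3 to 98.4% in WT replicate 1.

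A keratin filament is built from pairs of an acidic type I and a basic type II keratin, so the members of both types are made together in an epithelial cell. KRT8 with KRT18 is the pair of simple, single-layered epithelia, in which KRT7 and KRT19 are also found. KRT4 with KRT13 is the pair of stratified mucosal epithelia such as that of the oesophagus, and KRT15 and KRT17 belong to basal and stressed or appendage keratinocytes. Retinal pigment epithelium (RPE) is a simple epithelium, and RPE cells in culture are known to make KRT8 and KRT18.

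ARPE-19 is an established human RPE line. Polyadenylated RNA was sequenced from WT cells and from stable lines. The lines had expressed an introduced coding sequence (an open reading frame, ORF) for 4 days, a time not given for WT. The labels do not say how the WT cells were cultured. The groups are WT, for which the labels name no ORF, GFP, the line with the fluorescent control protein, GSTA4, the line with glutathione S-transferase alpha 4, and OSK, read as POU5F1, SOX2 and KLF4. Each has 3 libraries. Nothing in the labels tells separate cultures or lines from repeat libraries within a group, so p-values measure only the spread between these libraries, which may be technical, and ORF and line cannot be told apart. In bulk RNA, fewer cells of a type and less RNA per cell cannot be told apart either.

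Total counts ran from 12630675 to 17045454 per library, and 3 reads, the most that a count of 0 allows, came to 0.177 to 0.227 CPM (counts relative to library size, scaled by TMM). Floors and intervals cover counting error only. Pairwise comparison of the counts set WT replicate 1 apart, with a chi-square per gene of 14.2 and 16.7 against the other WT libraries, which differed from each other by 2.5. GFP replicate 1 stood apart in breadth, with 27349 genes detected where each remaining library had 19488 to 22073. The ORF genes matched the labels: GSTA4 had 396 to 430 CPM in its own group and at most 22.5 elsewhere, and POU5F1, SOX2 and KLF4 had 622 to 948 CPM in OSK and at most 2.67 elsewhere. RPE65, the visual cycle isomerase that defines mature RPE, was at most 0.64 CPM in every library, whereas the RPE transcription factors MITF and OTX2 had 126.8 CPM or more in every library. The pigment enzyme TYR was detected in all libraries, at 10.1 to 71.3 CPM. The pigment genes TYRP1 and PMEL had at least 36.8 and 85.3 CPM in every library. Other RPE markers were low, among them DCT, with at most 0.317 CPM in any library, and TTR, with at most 0.272. The RPE label thus holds for MITF, OTX2, TYR, TYRP1 and PMEL but not for RPE65, DCT or TTR.

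All members but KRT13, KRT15, KRT17 and KRT19 lie in the keratin cluster of chromosome 12, where the type I gene KRT18 sits beside its partner KRT8. The GENCODE 29 annotation (GRCh38) places KRT80 at chr12:52168996-52192000, KRT7 at chr12:52232520-52252186, KRT81 at chr12:52285913-52291534, KRT4 at chr12:52806549-52814551, KRT8 at chr12:52897187-52949954 and KRT18 at chr12:52948871-52952901. In the type I cluster of chromosome 17 lie KRT13 at chr17:41500981-41505705, KRT15 at chr17:41513743-41522529, KRT19 at chr17:41523617-41528308 and KRT17 at chr17:41619441-41624842. KRT8 and KRT18 share 1084 bases on opposite strands. KRT81 lies wholly within the span of KRT86 on the opposite strand, and KRT7 overlaps KRT7-AS and KRT87P on the opposite strand and KRT86 on its own. The strand setting of the counting is not given in the sources used here, so reads in such shared stretches cannot be assigned with certainty.

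Promoter windows of 300 bases, from 250 before to 50 after the recorded start, were taken from RefSeq (GRCh38.p14), which held entries for KRT4 and KRT8 among the members. The window of KRT8 is shown because KRT8 is the only member with an entry that passed the filter, and those of KRT33B and KRT34 because these neighbouring hair keratins of the chromosome 17 cluster rose with OSK. Capitals mark 2 motifs, the TATA box core TATAAA and the KLF motif CCACNCCC.
KRT8, chr12:52926420-52926719, minus strand: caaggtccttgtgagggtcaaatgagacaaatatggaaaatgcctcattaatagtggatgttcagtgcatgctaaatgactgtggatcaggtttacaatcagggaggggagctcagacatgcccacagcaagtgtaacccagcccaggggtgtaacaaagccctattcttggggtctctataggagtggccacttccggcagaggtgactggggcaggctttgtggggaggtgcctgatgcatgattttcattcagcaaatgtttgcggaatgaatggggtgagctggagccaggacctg
KRT33B, chr17:41369764-41370063, minus strand: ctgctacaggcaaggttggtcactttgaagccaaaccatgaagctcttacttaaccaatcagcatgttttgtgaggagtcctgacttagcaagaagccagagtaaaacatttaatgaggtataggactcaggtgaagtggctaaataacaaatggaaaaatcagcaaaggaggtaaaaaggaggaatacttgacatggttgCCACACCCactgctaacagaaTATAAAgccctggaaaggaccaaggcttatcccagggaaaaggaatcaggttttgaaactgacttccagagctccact
KRT34, chr17:41382257-41382556, minus strand: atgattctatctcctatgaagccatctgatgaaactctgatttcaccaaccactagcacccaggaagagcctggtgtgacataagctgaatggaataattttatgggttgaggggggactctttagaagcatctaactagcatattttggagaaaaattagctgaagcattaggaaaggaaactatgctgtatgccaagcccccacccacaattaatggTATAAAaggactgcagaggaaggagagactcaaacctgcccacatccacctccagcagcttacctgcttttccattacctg
The recorded start of KRT8 lies inside the longer span that GENCODE gives it. The motifs searched on both strands were TATAAA, CCACNCCC, the octamer ATGCAAAT bound by POU factors and the SOX motif CATTGTT. The KRT8 window at this recorded start held none of them, nor did that of KRT4. No window at any other start of KRT8 was searched. KRT33B held CCACACCC with its first base at position -49 and TATAAA at -28 from the start, and KRT34 held TATAAA at -31. Among 38 keratin windows, 21 held TATAAA, 6 the KLF motif, 0 the octamer and 1 the SOX motif. Of all 35116 windows in the table, 11.5%, 17.2%, 1.77% and 3.33% held these motifs in the same order. A match is a run of letters and not a measured site.

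KRT8 and KRT18, the simple epithelial pair, were highest in WT and lowest in OSK. KRT8 had 1469, 1166 and 1102 CPM in the WT libraries, 789, 822 and 912 in GFP, 691, 668 and 675 in GSTA4, and 542, 478 and 483 in OSK. The 4 groups did not overlap in KRT8, in the order WT, GFP, GSTA4, OSK. KRT18 had 498, 397 and 400.1 CPM in the WT libraries, 292, 321 and 326 in GFP, 303, 287 and 286 in GSTA4, and 247, 219 and 217 in OSK. GFP and GSTA4 overlapped in KRT18, while WT lay above both and OSK below both.

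The fitted log2 fold changes of the pair gave the same order. Because the members were chosen by these contrasts, their fold changes are given with their SE and no p-value. KRT8 differed by -0.31 (SE 0.086) in GSTA4 against GFP, -0.75 (SE 0.087) in OSK against GFP and -0.57 (SE 0.086) in GFP against WT. KRT18 differed by -0.10 (SE 0.079), -0.46 (SE 0.079) and -0.46 (SE 0.079) in the same contrasts. Without WT replicate 1, which had the highest level of both genes, GFP against WT was -0.43 for KRT8 and -0.35 for KRT18. The pair did not keep 1 ratio: KRT8 had 2.88 ± 0.109 reads per KRT18 read in the WT libraries, 2.69 ± 0.119 in GFP, 2.32 ± 0.0407 in GSTA4 and 2.20 ± 0.0211 in OSK (SD, n = 3). Both genes have many processed pseudogenes, to which reads of the parent can map. The 51 KRT8 pseudogene lines held 2.99% to 4.73% as many reads as KRT8, and the 67 KRT18 lines 2.08% to 4.98% as many as KRT18.

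KRT7, a type II keratin of simple and glandular epithelia, was lower in both GSTA4 and OSK than in the controls. It had 774, 1133 and 1098 CPM in the WT libraries, 1079, 1168 and 1288 in GFP, 551, 502 and 522 in GSTA4, and 610, 677 and 674 in OSK. WT and GFP overlapped, with WT replicate 1 the lowest of the controls. OSK lay below every control library and above every GSTA4 library. The log2 fold change of KRT7 was -1.17 (SE 0.104) in GSTA4 against GFP, a 2.25-fold lower level, and -0.85 (SE 0.103) in OSK against GFP, a 1.81-fold lower level. In OSK against GSTA4 it was 0.32 (SE 0.103), and in GFP against WT 0.24 (SE 0.102), or 0.080 without WT replicate 1. The antisense gene KRT7-AS, which overlaps KRT7, had 32.5 CPM ± 1.78 in GFP, 15.9 ± 1.68 in GSTA4 and 15.9 ± 0.929 in OSK. Whether those reads came from KRT7 was not tested.

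KRT80, a type II keratin widely found in epithelia, moved apart from KRT7. It had 397, 663 and 668 CPM in the WT libraries, 621, 640 and 707 in GFP, 385, 369 and 363 in GSTA4, and 729, 787 and 763 in OSK. GSTA4 was below all other libraries and OSK above all others, and the control groups overlapped. The log2 fold change of KRT80 was -0.82 (SE 0.124) in GSTA4 against GFP, 0.21 (SE 0.123) in OSK against GFP and 1.03 (SE 0.124) in OSK against GSTA4. In GFP against WT it was 0.19 (SE 0.123), and -0.019 without WT replicate 1. The reads of KRT80 per read of KRT7 came to 0.569 ± 0.0498 in the WT libraries, 0.557 ± 0.0159 in GFP, 0.71 ± 0.0211 in GSTA4 and 1.16 ± 0.0315 in OSK (SD, n = 3). LINC00592, which spans KRT80 on the opposite strand, had at most 2.02 CPM as a group mean.

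KRT13, the type I keratin of the suprabasal layers of mucosal epithelia, was close to the floor in 3 groups and abundant in OSK. It had 0.746, 1.61 and 1.06 CPM in the WT libraries, 1.21, 1.86 and 3.60 in GFP, 0.698, 0.225 and 0.0687 in GSTA4, and 254.7, 255.3 and 256.5 in OSK. The OSK libraries lay within a narrow range and far above all others, WT and GFP overlapped, and GSTA4 lay below all others. In reads, this is 3583, 4037 and 3649 in OSK against 16, 26 and 53 in GFP and 11, 3 and 1 in GSTA4. The log2 fold change of KRT13 was 6.81 (SE 0.181) in OSK against GFP, a 112.4-fold higher level, and 6.53 without GFP replicate 1 or 7.36 without GFP replicate 3. In GSTA4 against GFP it was -2.69 (SE 0.474), and -3.90 without GSTA4 replicate 1, which held 11 of the 15 reads. In GFP against WT it was 1.01 (SE 0.357), a difference between overlapping groups that fell to 0.47 without GFP replicate 3. KRT4, its usual type II partner, did not follow: it had 2, 5 and 0 reads in OSK against 10, 8 and 8 in GFP.

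KRT81, a type II hair keratin, had few reads throughout. Its levels were 0.808, 1.47 and 1.65 CPM in the WT libraries, 2.12, 3.65 and 3.33 in GFP, 2.35, 2.10 and 2.47 in GSTA4, and 0.711, 0.569 and 0.984 in OSK. GFP and GSTA4 overlapped above WT, and OSK overlapped WT. The log2 fold change of KRT81 was -0.40 (SE 0.314) in GSTA4 against GFP, -2.01 (SE 0.361) in OSK against GFP and 1.21 (SE 0.332) in GFP against WT, or 0.96 without WT replicate 1. KRT86, the hair keratin whose span holds KRT81, had 14.4 CPM ± 4.14 in GFP, 11.5 ± 3.17 in GSTA4, 5.14 ± 0.271 in OSK and 7.36 ± 3.49 in WT, so its group means had the same order as those of KRT81. How far reads of the pair were mixed was not tested.

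**Figure D1:**
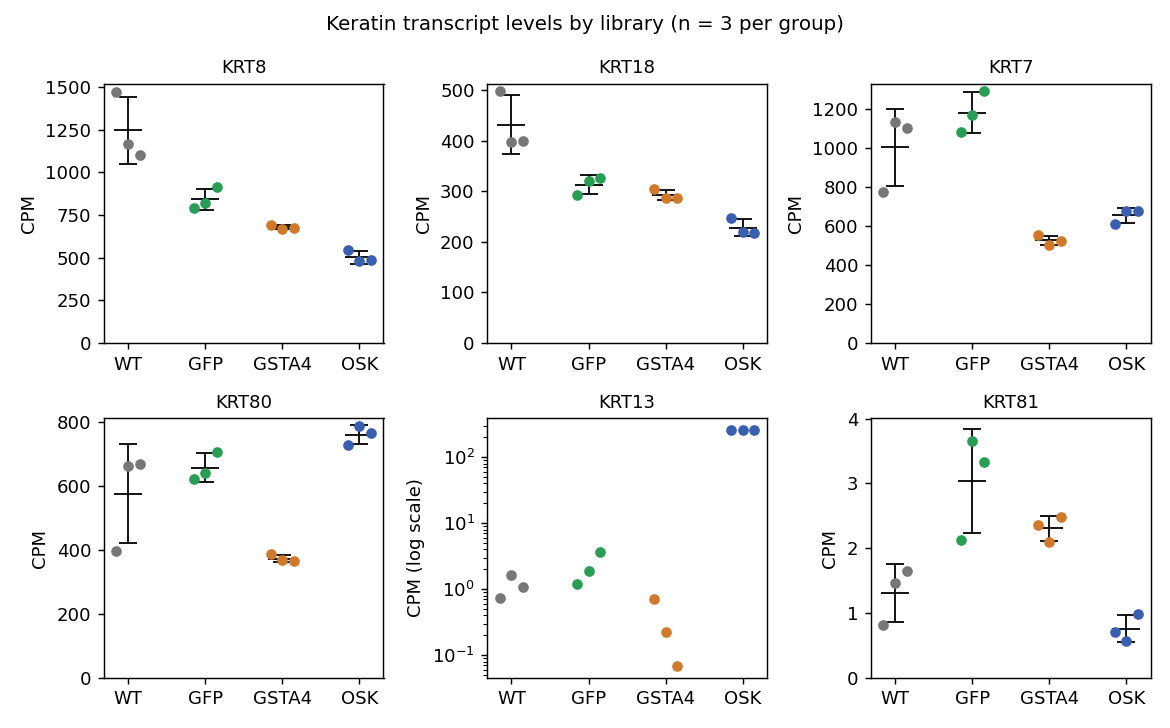
CPM of the 6 members that passed the filter, by library (points) in WT, GFP, GSTA4 and OSK, with the mean and SD (bars, n = 3); KRT13 is on a log axis with no bars. The OSK libraries of KRT13 sit between 254.7 and 256.5 CPM while all others are at or under 3.60, and WT replicate 1, the leftmost WT point, is low in KRT7 and KRT80 and high in KRT8 and KRT18.

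The other 4 members were near the floor. KRT4 had 2, 4 and 0 reads in the WT libraries, 10, 8 and 8 in GFP, 1, 3 and 0 in GSTA4, and 2, 5 and 0 in OSK. All GFP libraries lay above all others in KRT4, and the summed reads per library size were 4.83 times those of WT, with a 95% counting interval from 1.94 to 14.3. KRT15, a marker of basal cells, had 0, 2 and 1 reads in the WT libraries, 5, 6 and 2 in GFP, 0, 1 and 3 in GSTA4, and 1, 2 and 1 in OSK. KRT19, the small simple epithelial type I keratin, had 0, 3 and 3 reads in the WT libraries, 5, 2 and 2 in GFP, 1, 0 and 1 in GSTA4, and 1, 0 and 1 in OSK. KRT17, a keratin of stressed and appendage epithelium, had 0, 5 and 0 reads in the WT libraries, 3, 3 and 0 in GFP, and 0 in all GSTA4 and OSK libraries, which allows up to 0.225 CPM in the shallowest of these. At this depth no group difference is read from KRT4, KRT15, KRT17 or KRT19. The interval for KRT4 covers counting error only, in a gene chosen on values of these libraries.

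Of the 6 members tested, 4 were past the threshold of adjusted p 0.05 in GSTA4 against GFP, all lower (KRT7, KRT8, KRT13 and KRT80). In that contrast 29.2% of all 15179 genes tested were past it, 14.7% higher and 14.6% lower. KRT8 lost its call without GFP replicate 3 (log2 fold change -0.25). In OSK against GFP, 5 of the 6 were past it, KRT13 higher and KRT7, KRT8, KRT18 and KRT81 lower, where 45.9% of all genes were, 23.1% higher and 22.8% lower. In GFP against WT 4 of the 6 were past it, KRT13 and KRT81 higher and KRT8 and KRT18 lower, beside 22.2% of all genes, 11% higher and 11.2% lower. The calls of both KRT13 and KRT81 were lost without WT replicate 1 and without GFP replicate 2, and that of KRT13 also without WT replicate 3 or GFP replicate 3, with DESeq2 and with the 6 libraries alone. In OSK against GSTA4 all 6 were past it, KRT7, KRT13 and KRT80 higher and KRT8, KRT18 and KRT81 lower, beside 47.8% of all genes, 24.1% higher and 23.8% lower. KRT7 lost that call without GSTA4 replicate 2, OSK replicate 2 or OSK replicate 3. Without GFP replicate 1 the log2 fold changes in GSTA4 against GFP were -1.23 for KRT7, -0.35 for KRT8, -2.97 for KRT13 and -0.85 for KRT80, and in OSK against GFP -0.91 for KRT7, -0.79 for KRT8, -0.51 for KRT18 and -2.20 for KRT81. With library size in place of TMM, the higher genes made up 39.8% of calls in OSK against GFP, in place of 50.4%, and 42.5% in OSK against GSTA4, in place of 50.3%. The members' contrasts chose them, so nothing is read from their counts.

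Summed over all 55 genes, keratin reads were lowest in GSTA4. They came to 3336 CPM ± 131 in the WT libraries, 3106 ± 231 in GFP, 1995 ± 60.1 in GSTA4 and 2721 ± 54.6 in OSK (SD, n = 3), and neither GSTA4 nor OSK overlapped another group. The types moved differently. Type II keratins summed to 2832 CPM ± 169.7 in the WT libraries, 2696 ± 214 in GFP, 1590 ± 42.9 in GSTA4 and 1921 ± 31.0 in OSK. Type I keratins summed to 504 CPM ± 38.7 in the WT libraries, 409.9 ± 21.2 in GFP, 406 ± 17.8 in GSTA4 and 800.4 ± 28.6 in OSK. OSK was thus above every other library in type I keratin reads and below both controls in type II reads. Vimentin (VIM), the intermediate filament protein of mesenchymal and many cultured cells, had 441 CPM ± 87.5 in the WT libraries, 548 ± 25.0 in GFP, 728 ± 64.2 in GSTA4 and 434 ± 41.1 in OSK.

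The makeup of the keratin reads differed most in OSK. KRT8 made up 37.5% ± 7.40 of keratin reads in the WT libraries, 27.1% ± 0.263 in GFP, 34.0% ± 0.425 in GSTA4 and 18.4% ± 1.71 in OSK (SD, n = 3). KRT7 was the leading keratin in GFP, with 37.9% ± 0.584, and KRT80 in OSK, with 27.9% ± 0.632. KRT13 took 9.39% ± 0.165 of keratin reads in OSK and at most 0.107% in any other library. Among type I reads alone it took 31.9% ± 1.03 in OSK, and the type I hair keratins took a further 36.4% ± 3.58. These hair keratins took 23.4% to 24.5% in the GSTA4 libraries, 17.1% to 18.1% in GFP and 5.84% to 13.5% in WT. WT replicate 1 differed from the other WT libraries, with 46.0% KRT8 in place of 33.8% and 32.7%.

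**Figure D2:**
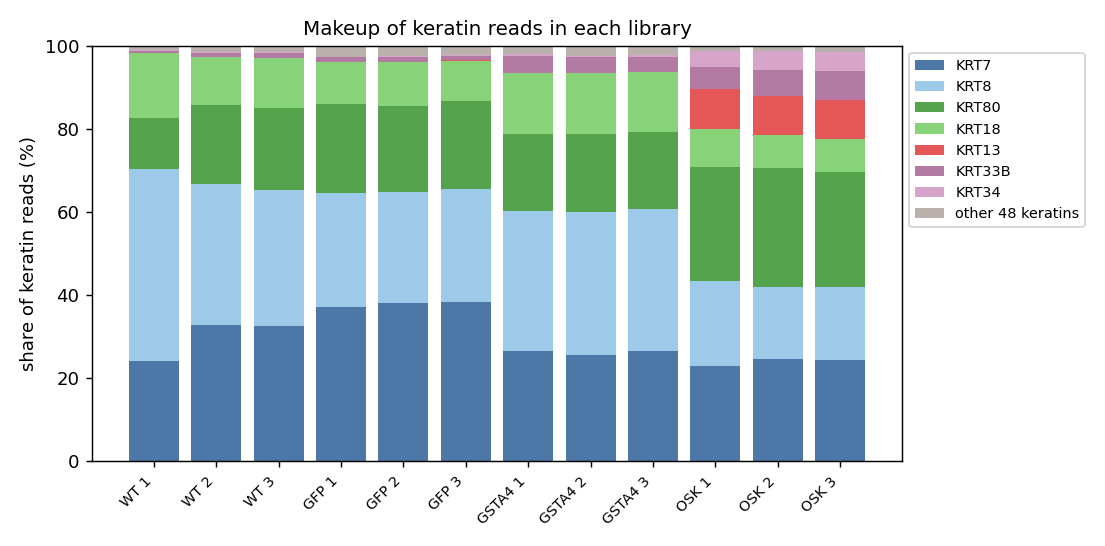
Share of all keratin reads (%) taken by KRT7, KRT8, KRT80, KRT18, KRT13, KRT33B, KRT34 and the other 48 keratin genes in each of the 12 libraries (stacked bars). KRT13 makes up 9.29% to 9.58% of the keratin reads of the OSK libraries, where the shares of KRT33B and KRT34 also widen.

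Levels between genes were compared per kilobase of merged exons. On this scale KRT7 was the highest member in WT (245 CPM per kb ± 48.4), GFP (288 ± 25.7) and GSTA4 (128 ± 5.92), and KRT80 in OSK (175 ± 6.76; SD, n = 3). KRT8 and KRT18 lay close to each other in OSK, at 72.8 ± 5.22 and 70.8 ± 5.12 CPM per kb, and 181 ± 28.5 and 134 ± 17.9 in WT. In OSK, KRT13 reached 87.7 ± 0.309 and the hair keratin KRT33B 106 ± 17.2 CPM per kb, both above the OSK mean of KRT8. The merged exons include every annotated isoform, and KRT8 has 6881 such bases, so its value per kb may be low if shorter isoforms prevail.

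Of the 45 keratins that are not members, 10 passed the filter, and several had higher levels than KRT81. By the highest group mean, KRT33B, KRT34, KRT38, KRT10, KRT86 and KRT32 all ranked above it. In OSK against GFP 8 of the 10 were past the threshold, 3 higher (KRT16, KRT33B and KRT34) and 5 lower (KRT23, KRT32, KRT36, KRT38 and KRT86), and in GSTA4 against GFP 3 were, KRT33B higher and KRT10 and KRT38 lower. Of all genes tested, 45.9% and 29.2% were past it in these contrasts, the latter near the share of these keratins. Their median log2 fold changes were -0.69 for OSK and -0.20 for GSTA4 against GFP, beside -0.019 and 0.0082 over all genes tested. KRT16 passed the filter only through its OSK libraries, so its higher call in OSK against GFP was set by the filter and is not support. KRT10 lost its call when any 1 library of GFP or GSTA4 was left out, and KRT31 was past the threshold in neither contrast, with log2 fold changes of 0.89 and 0.98.

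KRT33B and KRT34, type I keratins of the hair cortex, lie 7849 bases apart, and both promoter windows hold the TATAAA core. So do 21 of the 38 keratin windows in all, among them that of KRT38, which was lower in OSK than in GFP. KRT33B had 15.7, 29.3 and 37.1 CPM in the WT libraries, 32.1, 35.6 and 37.7 in GFP, 84.6, 74.4 and 72.5 in GSTA4, and 141.5, 172.0 and 197 in OSK. OSK lay above GSTA4, and GSTA4 above the controls, without overlap, while the controls overlapped each other. Between GSTA4 and GFP its log2 fold change came to 1.13 (SE 0.177, edgeR adjusted p 5.502e-05), and between OSK and GFP to 2.27 (SE 0.176, edgeR adjusted p 1.305e-09). KRT34 had 8.45, 9.90 and 12.8 CPM in the WT libraries, 4.77, 4.44 and 5.23 in GFP, 6.54, 4.50 and 7.15 in GSTA4, and 102, 126 and 122 in OSK. Only the OSK libraries stood high in KRT34, GFP and GSTA4 overlapped, and WT lay above both. Between OSK and GFP its log2 fold change came to 4.59 (SE 0.149, edgeR adjusted p 1.376e-15), and between GSTA4 and GFP to 0.34 (SE 0.190, edgeR adjusted p 0.198).

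KRT38, another hair keratin of the cluster, went the other way. It had 26.7 CPM ± 3.18 in GFP, 6.08 ± 0.724 in GSTA4, 2.37 ± 0.629 in OSK and 9.87 ± 3.71 in WT (SD, n = 3), with log2 fold changes of -2.13 (SE 0.213, edgeR adjusted p 1.491e-07) in GSTA4 against GFP and -3.50 (SE 0.243, edgeR adjusted p 2.476e-10) in OSK against GFP. KRT16, a keratin of activated keratinocytes, had 101 reads in OSK, 1 in GFP and 0 in GSTA4. Against GFP the ratio of reads per library size was 96.0, with a 95% counting interval from 16.8 to 3828, and against GSTA4, taken at the floor of 3 reads per library, OSK was at least 11.1-fold higher. KRT23 had 1 read in OSK and 30 in GFP, a level 31.6 times higher in GFP with an interval from 5.25 to 1288.

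**Figure D3:**
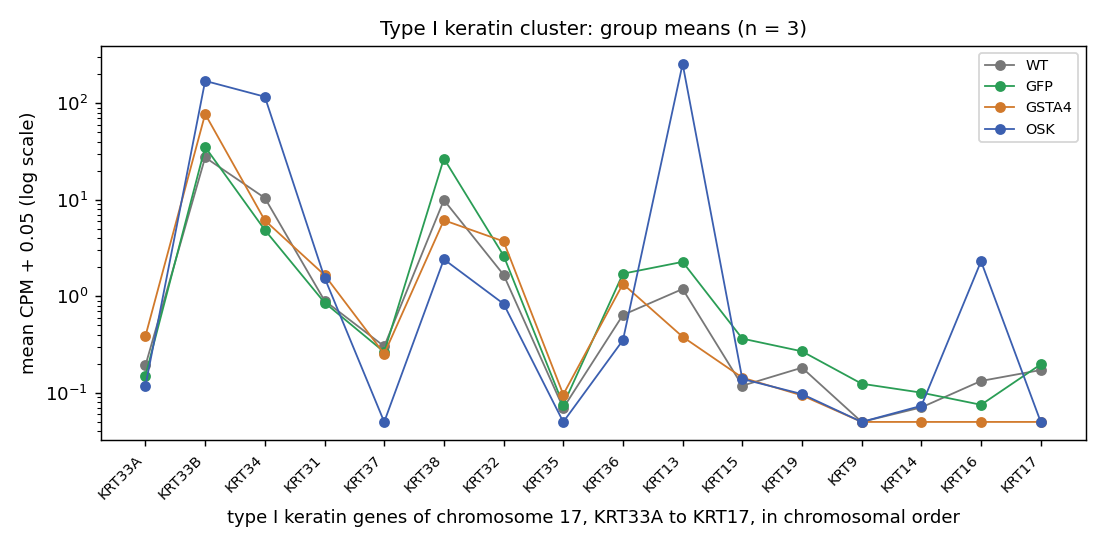
Group mean CPM plus 0.05 (log axis, n = 3) of the 16 type I keratin genes from KRT33A to KRT17, in their order along chromosome 17. OSK stands above the other groups at KRT33B, KRT34, KRT13 and KRT16 and below them at KRT38, KRT32 and KRT36.

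Only KRT13 of the 4 members in the chromosome 17 cluster had enough reads to be set beside its neighbours. Between KRT34 and KRT13 lie 6 keratin genes over 118577 bases, of which KRT38, KRT32 and KRT36 were lower in OSK than in GFP, where KRT13 was higher. In GFP against WT the log2 fold changes of KRT36 (1.47), KRT38 (1.44) and KRT13 had the same sign, as did those of KRT38 and KRT13 in GSTA4 against GFP. Those of KRT34 in GFP against WT (-1.11) and KRT33B in GSTA4 against GFP (1.13) had the opposite sign to KRT13. The call of KRT36 in GFP against WT was lost without WT replicate 1, WT replicate 2 or GFP replicate 2. On its other side KRT13 is 8037 bases from KRT15, which had 4 reads in the 3 OSK libraries together. Of the 16 genes, 8 passed the filter.

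**Figure D4:**
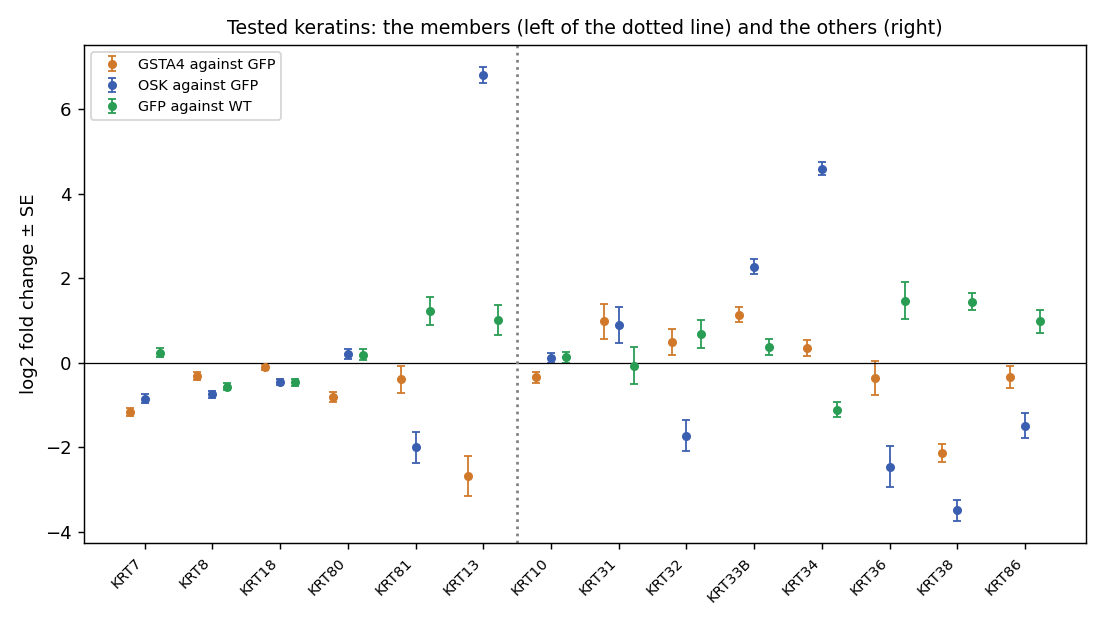
Log2 fold changes with SE (bars) of the 6 tested members, left of the dotted line, and of 8 other tested keratins, right of it, in GSTA4 against GFP, OSK against GFP and GFP against WT. KRT16 and KRT23 are left out because a whole group had 0 or 1 read, and KRT13 in OSK against GFP stands highest at 6.81.

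Genes of keratin anchorage moved in both directions. The desmosome, hemidesmosome and plakin list, whose proteins tie keratin filaments to cell contacts, had 17 of 24 genes tested. In GSTA4 against GFP 14 were past the threshold, 4 higher and 10 lower, with a median log2 fold change of -0.24 beside 0.0082 over all genes, of which 29.2% were past it. The periplakin gene PPL fell by 0.90 (SE 0.0845, edgeR adjusted p 6.316e-08) and the integrin gene ITGA6 by 0.60 (SE 0.0773, edgeR adjusted p 4.737e-06) on the log2 scale. In OSK against GFP 14 were past it, 6 higher and 8 lower, with a median of -0.068 beside -0.019 over all genes, of which 45.9% were past it. There ITGA6 rose by 0.80 (SE 0.0759, edgeR adjusted p 2.552e-08), while its hemidesmosomal partner ITGB4 fell by 1.16 (SE 0.0965, edgeR adjusted p 3.935e-09). In GFP against WT 7 were past it, 1 higher and 6 lower, where 22.2% of all genes were.

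Among 13 tested genes of 14 for keratin-binding and turnover proteins, 5 were past the threshold in GSTA4 against GFP (1 higher, 4 lower) and 9 in OSK against GFP (6 higher, 3 lower), with medians of 0.10 and 0.085. The share of all genes past it was 29.2% and 45.9%. The transglutaminase gene TGM2 fell by 2.94 on the log2 scale in GSTA4 against GFP (SE 0.384, edgeR adjusted p 5.958e-06). The small heat shock protein gene HSPB1 fell by 0.79 in OSK against GFP (SE 0.146, edgeR adjusted p 0.000155). Other intermediate filament genes had 7 of 15 tested, with 3 past the threshold in GSTA4 against GFP (2 higher, 1 lower) and 5 in OSK against GFP (4 higher, 1 lower), and medians of 0.14 and 0.50, beside the same 29.2% and 45.9% of all genes. Synemin (SYNM) rose in both, by 0.60 (SE 0.117, edgeR adjusted p 0.000516) and 1.43 (SE 0.115, edgeR adjusted p 2.188e-09).

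Of 23 transcription factors known to act on keratin genes, 15 were tested. In GSTA4 against GFP 5 were past the threshold, all lower, with a median log2 fold change of -0.30, among them the retinoic acid receptor gene RARA at -1.08 (SE 0.0742, edgeR adjusted p 4.778e-10). This share is close to the 29.2% of all genes past the threshold there in either direction, of which 14.6% of all genes were lower. In OSK against GFP 11 were past it, 3 higher and 8 lower, with a median of -0.22, where 45.9% of all genes were. The epithelial factor KLF5 fell by 1.00 on the log2 scale (SE 0.0798, edgeR adjusted p 2.082e-09), from 137 to 146 CPM in GFP to 67.8 to 75.7 in OSK. NFE2L2, a factor of the oxidative stress response, rose by 0.68 (SE 0.0724, edgeR adjusted p 1.43e-07). TP63, the master factor of stratified epithelia, had 1.22 to 2.22 CPM in GFP and 0.435 to 0.825 in WT, without overlap. It lay near or under the floor in GSTA4 and OSK, at most 0.253 CPM. TP63 passed the filter through its GFP libraries, where it was highest, so its lower calls against GFP were in part set by the filter.

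Markers of squamous differentiation were read beside KRT13. Of 25 listed genes 5 passed the filter, and in OSK against GFP 3 were past the threshold, all higher, where 23.1% of all genes were past it and higher. Filaggrin (FLG), of the cornified layer, had 71.0, 78.7 and 92.9 CPM in OSK and at most 6.92 in any other library, and rose by 5.27 on the log2 scale against GFP (SE 0.189, edgeR adjusted p 6.416e-15). Cornulin (CRNN) had 203 reads in OSK and 5 in GFP, a ratio of 38.6 with a counting interval from 16.3 to 120. Sciellin (SCEL) had 47 and 1, a ratio of 44.7 with an interval from 7.64 to 1801. CRNN and SCEL passed the filter only through their OSK libraries, so their higher calls there were set by the filter. The 3 calls are thus not comparable with the share over all genes. Of the genes that other groups also carried past the filter, FLG alone was past the threshold in OSK against GFP. TGM1, a transglutaminase of the cornified envelope, had 36.8 to 42.2 CPM in OSK and 29.7 to 42.1 in GFP. These ranges overlap, and the difference of 0.069 on the log2 scale (SE 0.170) was not past the threshold (edgeR adjusted p 0.77). LYPD3, the fifth gene tested, was not past the threshold either (log2 fold change 0.47, SE 0.476, edgeR adjusted p 0.441). In GSTA4 against GFP 2 of the 5 were past it, 1 higher and 1 lower, beside 29.2% of all genes. FLG rose there by 1.52 on the log2 scale (SE 0.240, edgeR adjusted p 6.251e-05), and TGM1 fell by 1.88 (SE 0.193, edgeR adjusted p 2.171e-07). In the rest of the list, 14 of the 25 genes had 0 reads in all OSK libraries, loricrin, SPRR1A, SPRR3 and TGM3 among them. The summed level of the list was 117 to 143.5 CPM in OSK, 37.0 to 46.9 in GFP, 15.6 to 19.7 in GSTA4 and 22.3 to 37.6 in WT.

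Markers of other cell types also differed between the groups, and their part in the keratin levels was not tested. The simple epithelium list (10 of 20 genes tested) had 6 genes lower and 0 higher in OSK against GFP, and 4 lower and 0 higher in GSTA4 against GFP. Of all genes tested, 22.8% were past the threshold and lower in OSK and 14.6% in GSTA4, against GFP, which serves as the background for the lists that follow too. The summed level of the simple epithelium list was 294.6 to 311 CPM in GFP, 189.8 to 195 in GSTA4, 196 to 202 in OSK and 296 to 408.5 in WT. Of this, MAL2 alone had 182 to 195 CPM in GFP, 103 to 105 in GSTA4, 140 to 148 in OSK and 205 to 306 in WT. EPCAM had at most 3 reads in any library. CLDN7, which did not pass the filter, had 6, 9 and 18 reads in OSK and at most 1 in any other library. E-cadherin (CDH1) had 11.5 to 20.2 CPM in GFP, 1.99 to 5.07 in WT and at most 0.984 in GSTA4 and OSK. The fibroblast list (4 of 10 tested) had 1 gene higher and 3 lower in GSTA4 against GFP and 4 lower in OSK against GFP. Its sums were 826 to 943 CPM in GFP, 558 to 599 in GSTA4, 372 to 437 in OSK and 843 to 919 in WT. Most of this was PDGFRB, with 621 to 695 CPM in GFP, 525 to 550 in GSTA4, 320 to 371 in OSK and 622 to 694 in WT. Larger log2 fold changes were those of COL1A1, -4.19 (SE 0.204, edgeR adjusted p 2.971e-12) in GSTA4 and -1.98 (SE 0.165, edgeR adjusted p 3.873e-09) in OSK against GFP. Those of TAGLN were -3.56 (SE 0.284, edgeR adjusted p 5.165e-09) and -2.18 (SE 0.253, edgeR adjusted p 5.008e-07). The gene higher in GSTA4 was ACTA2, at 0.43 (SE 0.159, edgeR adjusted p 0.0495). COL1A2, COL3A1, PDGFRA, THY1 and DCN had at most 1.29 CPM in any library, and LUM was at 0 throughout. The RPE list (12 of 15 tested) had 1 higher and 7 lower in GSTA4 against GFP, and 1 higher and 9 lower in OSK against GFP, with sums of 1106 to 1329 CPM in GFP, 583.5 to 698 in GSTA4, 684 to 723 in OSK and 696 to 924 in WT. Pluripotent cell markers other than the ORFs summed to at most 5.23 CPM in any library, and NANOG was at most 0.454 CPM in any library and at 0 in OSK.

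Genes with a pattern like that of KRT7, KRT8 or KRT13 were ranked by the root mean square difference of log2 CPM over the 12 libraries, each gene centred on its mean, among 13674 genes that are not keratins. Nearest to KRT8 were MICALL1 (0.11), the desmosomal plakoglobin gene JUP (0.14) and FZD2 (0.15), and KRT18 itself differed from KRT8 by 0.16, where KRT8 varied by 0.49 about its own mean. CTSH (0.083) was nearest to KRT7. The long noncoding RNA UNC5B-AS1 was nearest to KRT13, at 0.83, with 476 CPM ± 38.6 in OSK and at most 2.12 as a mean elsewhere. These values describe likeness in 4 groups only.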

How the data were processed

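Polyadenylated RNA from 12 libraries (4 groups of 3) was measured. The deposited values are counts, whole numbers of reads on each gene with no scaling. Per the labels' protocols, RNA was extracted with TRIzol and a NEBNext Ultra II kit was used for the libraries. The submitters' processing notes name STAR 2.7.1a and featureCounts 1.6.2, and a human and a mouse build without saying their role. Annotation, strand setting and the handling of reads with several matches are not given in the sources used here. Lines without a symbol (20014 of 60605) held 0.485% to 0.822% of a library's counts and were left out. Symbols were matched to GENCODE 29 for positions and merged exon lengths.

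Counts were scaled by TMM and tested with the quasi-likelihood test of edgeR 4.0.16 (limma 3.58.1, R 4.3.3). The filterByExpr filter by group kept 15179 genes. The 12 libraries were fitted together, each group with its own mean and without covariates. Two-sided p-values took the Benjamini-Hochberg adjustment over all genes tested, with a threshold of 0.05. SE is the log2 fold change over the root of F. For likeness, 0.125 CPM was added before the log2 and genes had a mean of at least 1 CPM. The counting intervals are exact conditional 95% intervals on summed reads. The fit was tested on simulated data. As alternatives, libraries were left out in turn, DESeq2 1.42.0 replaced edgeR, RLE or plain library size replaced TMM, and the low-count filter was dropped or set to a mean of 1 CPM. A replicate block was added, or the fit was limited to the 6 libraries of a contrast.

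The members and gene lists were chosen with earlier results of these data known. Genes named were the members, the other tested keratins, the 3 genes most like a member, list markers at 0 in a group, and per list up to 3 genes past the threshold with the lowest adjusted p and no overlap between groups. Some of these are not described. LINC00592, TGM1, LYPD3, CLDN7, EPCAM, and the RPE genes, fibroblast markers and TP63 given by level alone were named after their values were seen.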

Additional observations from a re-analysis of the deposited data

How the results depend on the processing

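All 312 member fold changes recomputed under the alternatives (24 results) kept the main direction where called. Of them 309 moved by less than the spread between replicates and 3 by more. These were KRT13 without GSTA4 replicate 1 (-3.90 in GSTA4 against GFP and 10.71 in OSK against GSTA4) and KRT80 in OSK against GSTA4 with library size alone (0.96). The uncalled KRT80 change in GFP against WT turned from 0.19 to -0.019 without WT replicate 1. With a mean of at least 1 CPM, 5 of the other keratins passed the threshold between OSK and GFP in place of 8, since KRT16, KRT23 and KRT36 were then not tested. Leaving out 1 library moved the members past the threshold in GFP against WT from 4 to between 2 and 5, the lowest without WT replicate 1 and without GFP replicate 2. It moved the other keratins in that contrast from 4 to between 2 and 5, the lowest without GFP replicate 2. With a group reduced to 2 libraries, its spread is taken from the common fit. KRT80 passed the threshold between OSK and GFP with no filter and with the 6 libraries alone, but not otherwise.

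Same-numbered libraries correlated by -0.0204 to 0.169 in their deviations from the group means. The highest values were those of WT replicate 1 with replicate 1 of GFP (0.169), GSTA4 (0.157) and OSK (0.132). Libraries with different numbers were not compared, so these values cannot tell whether the numbers pair the samples. A replicate block left 4 members and 4734 genes called for GSTA4 over GFP (4 and 4439 without it), and 5 and 7269 for OSK over GFP (5 and 6962). For GFP over WT it gave 5 and 3779 (4 and 3369, KRT7 being added), and for OSK over GSTA4 6 and 7476 (6 and 7262). Depth limits KRT4, KRT15, KRT17 and KRT19, whose counts were at most 10 reads in any library.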
